A study of Mus musculus with 9 samples.

Results

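The members described here are the stretches of accessible mouse DNA that a FAIRE plasmid library was called to hold, 186959 regions out of 202373 in the 5 deposited lists of regions. They were chosen as every region listed for the plasmid input. Its 195417 listed summits, the points of highest coverage, were collapsed so that summits within the same boundaries counted as 1 region. Positions below are in the mouse build mm9 and are counted from 1.

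Accessible DNA is chromatin in which nucleosomes are displaced or loosened, as at active promoters and enhancers, so that regulatory proteins can bind. FAIRE isolates it from cells fixed with formaldehyde, because DNA free of nucleosomes stays in the aqueous phase when chromatin is extracted with phenol. In STARR-seq such fragments are placed downstream of a minimal promoter on a plasmid, and a fragment with enhancer activity drives its own transcription into reporter RNA. The plasmid input is the DNA of the library itself, and it limits what the assay can test.

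The cells were E14, a line of mouse embryonic stem cells (mESCs) grown here without feeder cells. Leukemia inhibitory factor (LIF) keeps them pluripotent, and retinoic acid (RA), which binds and activates the receptor RARA, moves them toward differentiation. The cloned DNA came from E14 cells that had received RA for 4 h, so the library samples DNA that was accessible after RA. The plasmid input was 1 library without replicates. Reporter RNA was collected in 3 replicates with LIF and in 3 replicates without LIF after 4 h of 1 µM RA. RARA was mapped by ChIP-seq after RA in 1 library with 1 input library. The authors called enhancers on merged replicates. The mESC list holds 4674 regions with more reporter RNA with LIF than plasmid input, the LIF-dependent list 601 regions higher with LIF than with RA, and the RA-induced list 382 regions higher with RA than with LIF. The RARA list holds 9757 peaks. The lists hold no value per replicate, so the spread between cultures could not be measured. The 95% intervals below (Wilson for shares, log-normal for ratios of shares, order-statistic for medians) cover counting error alone.

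The number of plasmid fragments behind each summit could be read back from the deposited values. Fold enrichment and −log10 p together were met by a whole number of fragments in 100% of the 195417 summits, to within 0.001 on −log10 p. The strongest summit of a region, that of highest −log10 q, had a median of 20 fragments (quartiles 14 and 29), and the lowest had 7 and the highest 1291. A count of 20 carries an exact Poisson 95% interval of 12.2 to 30.9, so a single typical region is known only to within about that range. The background against which the fold is taken was the same value, 2 fragments, in 34.4% of summits and had a median of 2.53. A value shared so widely may be a fixed lower limit rather than a local background, which was not tested. The list is part of a longer one. Peak numbers in the names reach 397053, and 47.1% of them are listed.

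Most library regions were short. The median width was 327 bp (95% interval 326 to 328), with quartiles of 238 and 461 bp. No region was narrower than 180 bp, and 943 had exactly that width. Regions under 200 bp made up 9.55%. Only 1.07% (1996 regions) reached 1 kb, and the widest measured 2122 bp. The regions covered 70.5 Mb together. The widest decile (1 in 10) of regions held 21.0% of the covered bases and the narrowest decile 5.03%. Across the 186959 regions, which share 1 library, Spearman's rho of width with input fold enrichment was 0.24 and with the fragments at the summit 0.21. The strongest summit lay a median of 51 bp from the middle of its region.

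A single summit was the rule. Of all regions, 179416 had 1 summit and 7543, or 4.04% (3.95 to 4.13), had several. There were 6726 regions with 2 summits, 733 with 3, 72 with 4, 10 with 5 and 2 with 6. Width rose with the number of summits, from a median of 319 bp with 1 summit to 684.5 bp with 2, 992 bp with 3 and 1266 bp with 4. The narrowest region with several summits measured 268 bp. Neighbouring summits within a region lay a median of 329 bp apart (quartiles 255 and 413, n = 8458 pairs), and the closest pair was 46 bp apart. In the plot of width by summit number, the peak of the single-summit distribution lies just above 200 bp, whereas regions with 3 or more summits start above 500 bp.

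**Figure D1:**
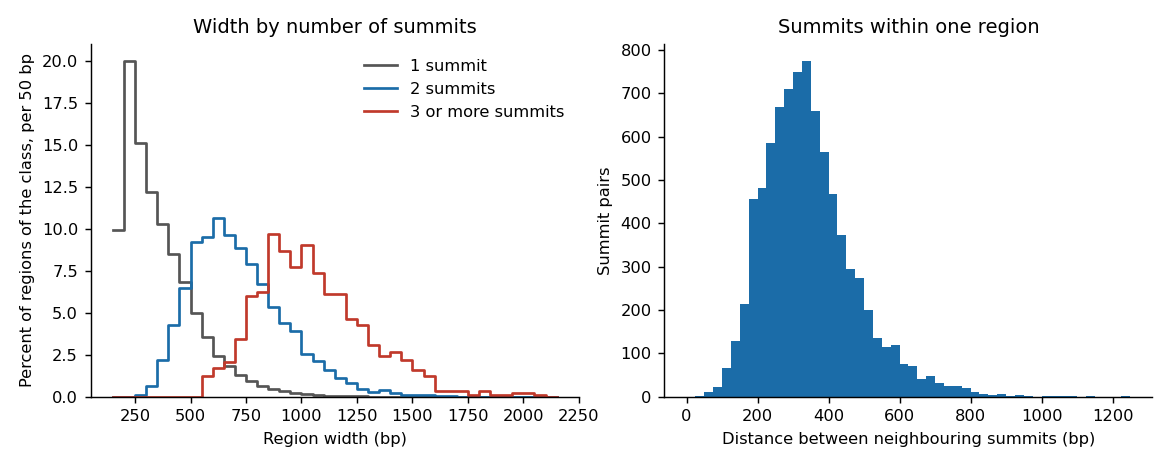
Left, percent of input regions per 50 bp of width, for regions with 1 summit (179416), 2 summits (6726) and 3 or more summits. Right, number of pairs of neighbouring summits within 1 region by their distance in bp. Medians of width were 319 bp for 1 summit and 684.5 bp for 2, and summits lay a median of 329 bp apart.

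The 10 widest regions ran from 1855 to 2122 bp. The widest, on chromosome 12 from 81743647 to 81745768, had 2 summits and 12.5-fold input enrichment, and it held both an mESC and an RA-induced enhancer. The second, on chromosome 4 from 108010492 to 108012567, measured 2076 bp and had 6 summits, yet it overlapped no enhancer and no RARA peak. The other region with 6 summits, on chromosome 5 from 118894443 to 118896376 (1934 bp), overlapped a RARA peak and no enhancer. Width and summit number did not always go together: the third widest region, on chromosome 16 from 8459253 to 8461290, measured 2038 bp with 1 summit. Among the 10 widest regions 4 held an mESC enhancer, where 2.47% of all regions did, and 5 overlapped a RARA peak, where 2.94% of all did. Among the 10 regions with most summits 4 held an mESC enhancer and 6 overlapped a RARA peak.

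Most library regions had a neighbour within a few kilobases, although long gaps raised the mean gap to 13422 bp. The gap from the edge of one region to the next had a median of 5411 bp (quartiles 2041 and 12393, n = 186938 gaps). The nearer of a region's neighbours was a median of 2568 bp away. Gaps under 1 kb made up 14.1% and gaps under 10 kb 69.5%. The shortest gap was 181 bp. At the other end, 3184 gaps (1.70%) exceeded 100 kb and 20 exceeded 1 Mb. The longest ran on chromosome 7 from 39330080 to 46406997 (7.08 Mb), and 4 peak numbers fall between its flanking regions. The second lay on chromosome X from 23952576 to 30373463 (6.42 Mb), with 30 peak numbers between. The next 2 were also on chromosome 7, from 7524116 to 10596185 (3.07 Mb) and from 21618665 to 23939447 (2.32 Mb), and the fifth was on chromosome 1 from 85236221 to 87475080 (2.24 Mb). Peak numbers follow the order along the genome, so numbered peaks were few in these stretches too.

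Regional density was uneven. Over 2592 windows of 1 Mb the median was 57 regions, with quartiles of 24 and 112 and a range of 0 to 259. The variance of the number per window was 43.8 times its mean. The densest quintile (1 in 5) of windows, those with 125 to 259 regions, held 45.0% of all regions. The sparsest quintile, with 0 to 20 regions, held 3.27%, and 24 windows held none. The window with most regions lay on chromosome 11 from 97000001 to 98000000. Its 259 regions covered 93.9 kb, and 14 of them held an mESC enhancer (5.41%, 3.25 to 8.87), where 2.47% of all regions did. A second window on chromosome 11, from 116000001 to 117000000, followed with 257 regions, of which 7 held an mESC enhancer (2.72%, 1.33 to 5.51). The third, on chromosome 17 from 29000001 to 30000000, had 255 regions and 8 with an mESC enhancer (3.14%, 1.60 to 6.07), and the intervals of both hold the share over all regions. The neighbouring window on chromosome 17, from 28000001 to 29000000, ranked 10 with 233 regions and 1 with an mESC enhancer (0.429%, 0.0758 to 2.39). The windows of rank 4 (chromosome 4 from 132000001) and rank 5 (chromosome 10 from 79000001) had mESC shares of 5.33% (3.14 to 8.90) and 5.76% (3.46 to 9.44). Both intervals lay above the share over all regions, and those of ranks 6 to 9 held it. Of the 10 densest windows 3 were on chromosome 11, and chromosomes 10 and 17 had 2 each. In windows with more regions the median fold enrichment was lower (Spearman's rho −0.31 across the 2568 windows with a region, all from 1 library). Fold and fragments moved in opposite directions here. Regions in the sparsest quintile of windows had a median of 16 fragments at the summit over a median background of 2.00, and those in the densest quintile had 21 over 3.19. The 2.00 is the most frequent value given above, so a fixed lower limit may have held up the background in sparse windows.

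**Figure D2:**
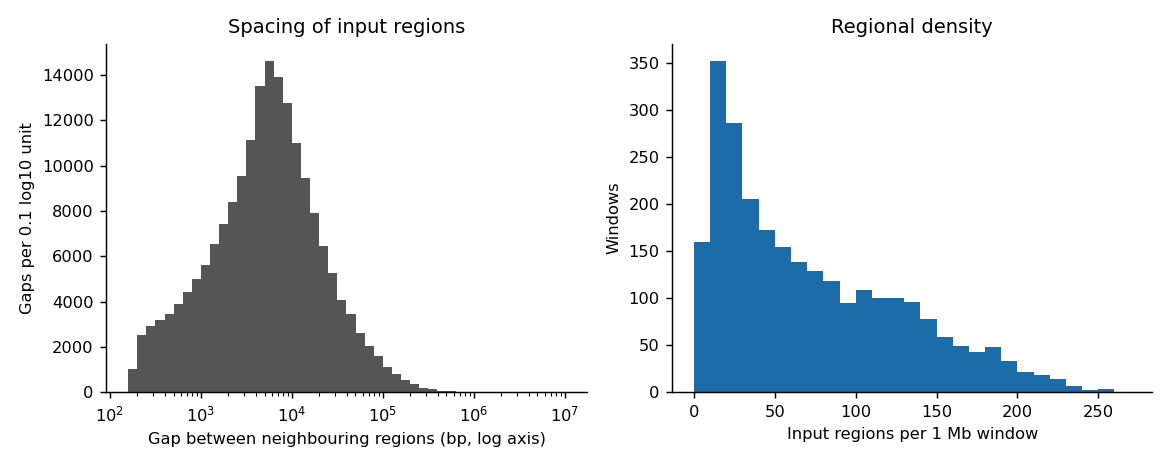
Left, number of gaps between neighbouring input regions by length in bp (log axis, bins of 0.1 log10 unit). Right, number of 1 Mb windows by the input regions they hold. Gaps had a median of 5411 bp, and windows ranged from 0 to 259 regions with a median of 57.

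Chromosome 11 was the densest chromosome at 110.4 regions per Mb and chromosome 14 the sparsest autosome at 54.1. Chromosome 11 also had the largest autosomal share of regions with several summits (4.89%) and of its span covered (4.18%), and chromosome 14 the smallest (2.88% and 2.03%). Chromosome X stood apart, with 15.8 regions per Mb and 0.604% of its span covered. Its regions were of ordinary shape, with a median width of 336 bp against 323 to 335 bp on the autosomes. Their median fold enrichment was 6.33, against 5.33 to 5.67 on the autosomes. On X 25.7% of the peak numbers were listed, against 40.9% (chromosome 14) to 56.2% (chromosome 11) on the autosomes. Chromosome Y contributed 11 regions.

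A small share of the library showed enhancer activity. With at least 1 bp of overlap counted, 4618 regions held an mESC enhancer, 2.47% of 186959. A LIF-dependent enhancer lay in 582 regions (0.311%) and an RA-induced enhancer in 376 (0.201%). Any of the 3 lists was met in 4800 regions (2.57%), and 182159 regions (97.4%) held none. By length the active part was 1526 kb, or 2.16% of the covered bases. LIF-dependent activity was nested in mESC activity, with 581 of the 582 regions holding both. RA-induced activity was split, with 195 regions that also held an mESC enhancer and 181 that did not. No region held both a LIF-dependent and an RA-induced enhancer. These lists are opposite contrasts of LIF and RA, so the same stretch could hardly enter both. Of the 4618 regions with an mESC enhancer, 4609 held a single one. The 9 regions that held 2 are singled out after their values were seen: 8 of them had several summits, and their median width was 1042 bp. The longest was on chromosome 2 from 28694948 to 28696511 (1564 bp, 3 summits). RARA peaks overlapped 5488 regions (2.94%).

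Active regions were wider and better represented than the rest. Those with an mESC enhancer had a median width of 505 bp (495 to 511), those with a LIF-dependent enhancer 506 bp, those with an RA-induced enhancer 499.5 bp, and those with no enhancer 323 bp (322 to 324). The 3 medians were close, but the classes share regions. Of the LIF-dependent regions 581 of 582, and of the RA-induced regions 195 of 376, also held an mESC enhancer. At the summit, regions with an mESC enhancer had a median of 77 plasmid fragments (quartiles 45 and 115), against 19 in regions without. Enhancers of the mESC list were called over the plasmid input, so a region with few fragments was also one in which a call was harder to make. That part in the difference was not tested, and the contrasts below are therefore also given among regions of like representation.

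The share holding an mESC enhancer rose through every decile of width, from 0.300% (0.231 to 0.389) in the narrowest to 8.21% (7.83 to 8.61) in the widest, a ratio of 27.4 (21.0 to 35.8). The share of LIF-dependent enhancers was 0.0802% in the narrowest and 1.03% in the widest decile (ratio 12.9, 7.61 to 21.8), and that of RA-induced enhancers 0.0749% and 0.642% (ratio 8.57, 4.93 to 14.9). For RARA peaks, from an assay that does not use the plasmids, the shares were 1.01% and 8.54% (ratio 8.45, 7.28 to 9.81). A wider region also offers more bases to overlap. Counted per base, the widest decile had 104.3 mESC enhancers per covered Mb and the narrowest 15.8. With only an enhancer summit within 150 bp of the strongest input summit counted, the ratio was 25.4 (19.3 to 33.4). This stretch is of equal length for every region, but it reaches past the edges of the narrowest regions (180 to 201 bp). The library DNA searched was therefore not made equal. Averaged within deciles of input fold the mESC ratio was 19.2, and within deciles of summit fragments it was 9.45, with the widest regions higher in 10 of 10 deciles both times. Within deciles of summit fragments the ratio for RARA was 2.95. In the plot by deciles, the mESC share is nearly flat over the lower deciles of fragments (0.273% in the lowest and 0.310% in the fifth decile) and climbs from the sixth, with 0.546% (0.450 to 0.662) there, 1.17% in the eighth and 18.1% in the highest. RARA overlap climbs more evenly, from 0.433% to 13.7%.

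**Figure D3:**
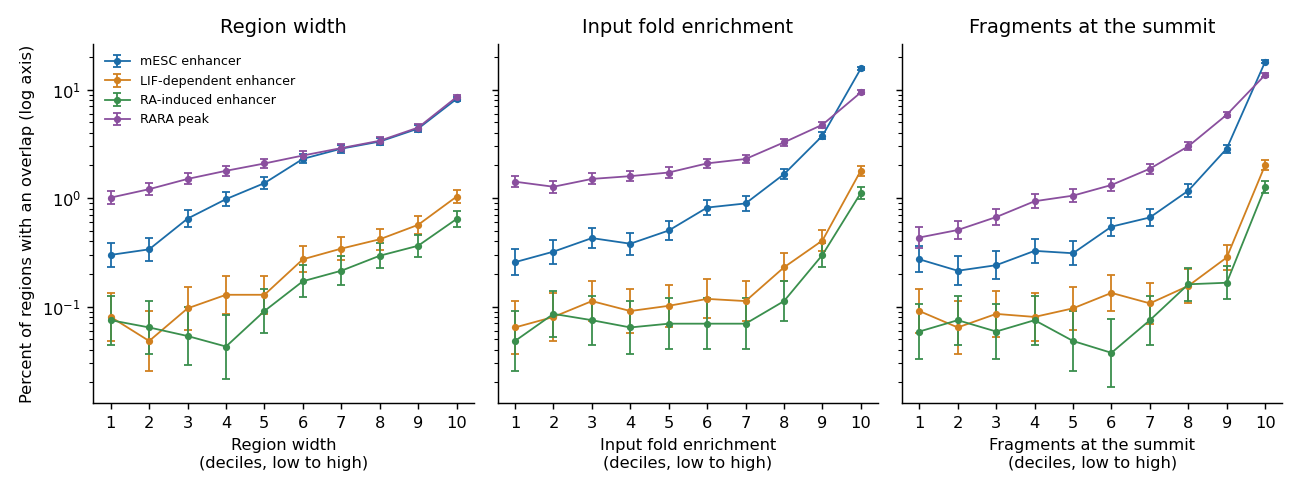
Percent of input regions (log axis) that overlap an mESC, LIF-dependent or RA-induced enhancer or a RARA peak, by deciles of region width, of input fold enrichment and of fragments at the summit, with 95% Wilson intervals. The mESC share rises from 0.300% to 8.21% over the width deciles and from 0.273% to 18.1% over the fragment deciles.

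The rise with representation was larger in wide regions. In the narrowest quintile of regions the mESC share stayed low at every level of input fold, with 0.279% (0.197 to 0.396) in the lowest quintile of fold and 0.414% (0.237 to 0.722), or 12 of 2899 regions, in the highest. In the widest quintile it was 0.372% (0.218 to 0.636) in the lowest quintile of fold and 16.6% (15.9 to 17.3), or 2025 of 12208 regions, in the highest. By input fold, RARA overlap showed the same shape. It was 1.26% and 0.931% in the narrowest regions of lowest and highest fold, and 2.44% and 12.3% in the widest. With summit fragments as the measure of representation, the narrowest quintile was not flat. Its mESC share was 0.234% (0.156 to 0.350) in the lowest and 1.15% (0.814 to 1.61) in the highest quintile of fragments, and its RARA share was 0.386% and 3.58% (2.96 to 4.34). In the widest quintile the mESC shares by fragments were 0.318% and 16.9%, and the RARA shares 0.660% and 15.0%. Wide regions were thus the higher ones at high representation by either measure, whereas the flat course in narrow regions was seen with fold alone.

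**Figure D4:**
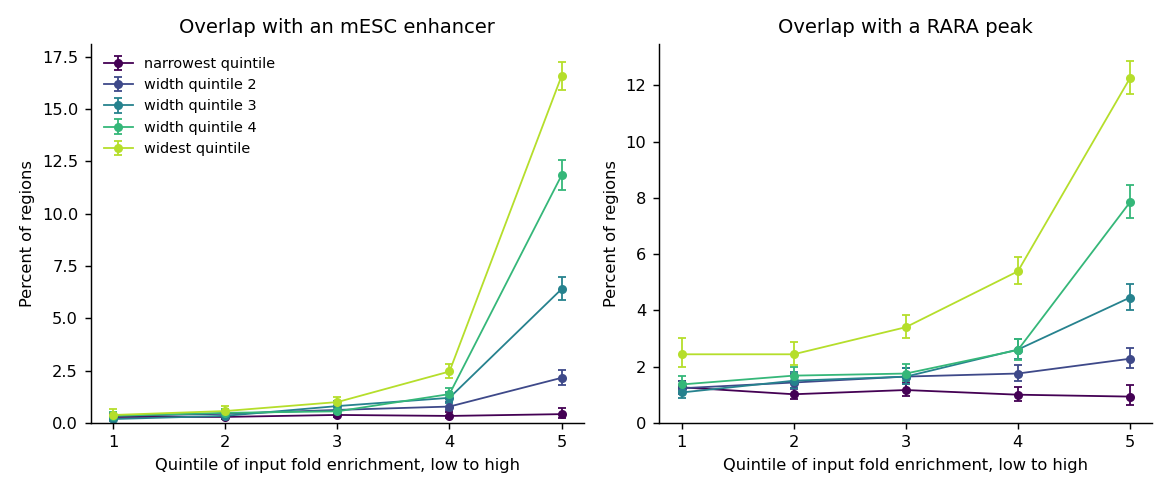
Percent of input regions overlapping an mESC enhancer (left) or a RARA peak (right) by quintile of input fold enrichment, with 1 line for each quintile of width and 95% Wilson intervals. The narrowest quintile stays at 0.279% to 0.414% for mESC at its ends, and the widest quintile reaches 16.6%.

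Regions with several summits were more often active. An mESC enhancer lay in 12.8% (12.1 to 13.6) of them and in 2.03% (1.97 to 2.10) of regions with 1 summit, a ratio of 6.32 (5.91 to 6.75). By number of summits the share was 12.1% with 2, 18.8% with 3 and 23.8% (16.0 to 33.9) with 4 or more, the last from 20 of 84 regions. The contrast was smaller among regions of like width or representation. The ratio was 3.10 within deciles of input fold, 1.61 within deciles of width, 1.60 within deciles of summit fragments and 1.48 within quintiles of both width and fold. Within deciles of summit fragments the regions with several summits were higher in 5 of 10 deciles, and within deciles of width in 4 of the 7 that held such regions. These tallies cannot show whether the contrast was uneven, because such regions were too scarce in the low deciles for an enhancer to be likely among them. They made up 0.0107% of the lowest and 0.348% of the fourth fragment decile, against 18.4% of the highest. In the fourth width decile they made up 0.0214%, against 27.2% in the widest. For LIF-dependent enhancers the unadjusted ratio was 5.30 (4.30 to 6.53) and for RA-induced enhancers 4.97 (3.81 to 6.49). Within deciles of summit fragments both ratios were 1.23. The regions with several summits were higher in 3 of 10 deciles for LIF-dependent and in 4 of 10 for RA-induced enhancers. The same scarcity limits these tallies further, because both lists are shorter than the mESC list. In the logistic regression with summit fragments, given below, the odds ratio of several summits was 0.912 (0.740 to 1.12) for LIF-dependent and 0.814 (0.572 to 1.16) for RA-induced enhancers, so the higher shares were not seen at like width and fragment number. RARA peaks overlapped 14.6% of regions with several summits and 2.44% of those with 1, a ratio of 5.98 that was 2.31 within deciles of summit fragments. Of regions with an mESC enhancer, 13.0% (12.0 to 14.2) with 1 summit and 10.8% (9.03 to 12.9) with several were also LIF-dependent. Likewise, 4.11% (3.51 to 4.80) and 4.64% (3.49 to 6.16) were also RA-induced, and the intervals overlapped both times.

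Close neighbours went with a higher mESC share, but not among regions of like fragment number. An mESC enhancer lay in 3.52% (3.36 to 3.69) of the 48898 regions with another region within 1 kb and in 1.79% (1.64 to 1.95) of the 27319 with none within 10 kb, a ratio of 1.97 (1.78 to 2.17). Within deciles of input fold the ratio was 2.26. Within deciles of summit fragments the direction turned, to 2.80% against 3.24%, a ratio of 0.866. Fold is taken over a background that was higher where regions crowd, and this part in the turn was not tested. LIF-dependent enhancers had a ratio of 1.74 (1.33 to 2.27), or 0.862 within deciles of summit fragments. For RA-induced enhancers the shares were 0.221% and 0.194%, with a ratio of 1.14 (0.820 to 1.58), or 0.600 within deciles of summit fragments. RARA overlap kept its direction, with 4.66% against 1.06%, a ratio of 4.40 (3.90 to 4.97), and 2.25 within deciles of summit fragments.

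On the scale of 1 Mb the mESC share did not follow density steadily. It was highest in the second sparsest quintile of windows, at 2.89% (2.64 to 3.17). In the third quintile it was 2.30% and in the fourth 2.23% (2.11 to 2.36). The densest and the sparsest quintile of windows had mESC shares of 2.62% and 2.27%, and the interval of their ratio, 1.15 (0.971 to 1.36), spans 1. With windows of 5 Mb the ratio was 0.834 (0.738 to 0.942), in the opposite direction. Within deciles of summit fragments the share was 2.50% in the densest and 5.13% in the sparsest quintile, a ratio of 0.488, and the densest quintile was the lower one in all 10 deciles. RARA overlap was higher in dense windows, at 3.72% against 0.982% (ratio 3.79, 2.94 to 4.88). It stayed so within deciles of summit fragments, with a ratio of 1.79. Regions in crowded DNA thus overlapped RARA peaks more often, whereas for mESC enhancers the direction depended on window size and on fragment number.

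Across the autosomes the mESC share ran from 2.02% on chromosome 12 to 3.03% on chromosome 7. On chromosome X it was 4.70% (3.94 to 5.58), or 121 of 2576 regions, above every autosome. RA-induced enhancers lay in 0.699% of X regions (0.443 to 1.10), against 0.121% to 0.305% on the autosomes, from 18 regions. RARA overlap was not higher on X, at 1.75% against 2.00% to 3.65%. A smaller part of the X peak numbers was listed than on any autosome, as given above, and the part of this in the higher share was not tested.

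**Figure D5:**
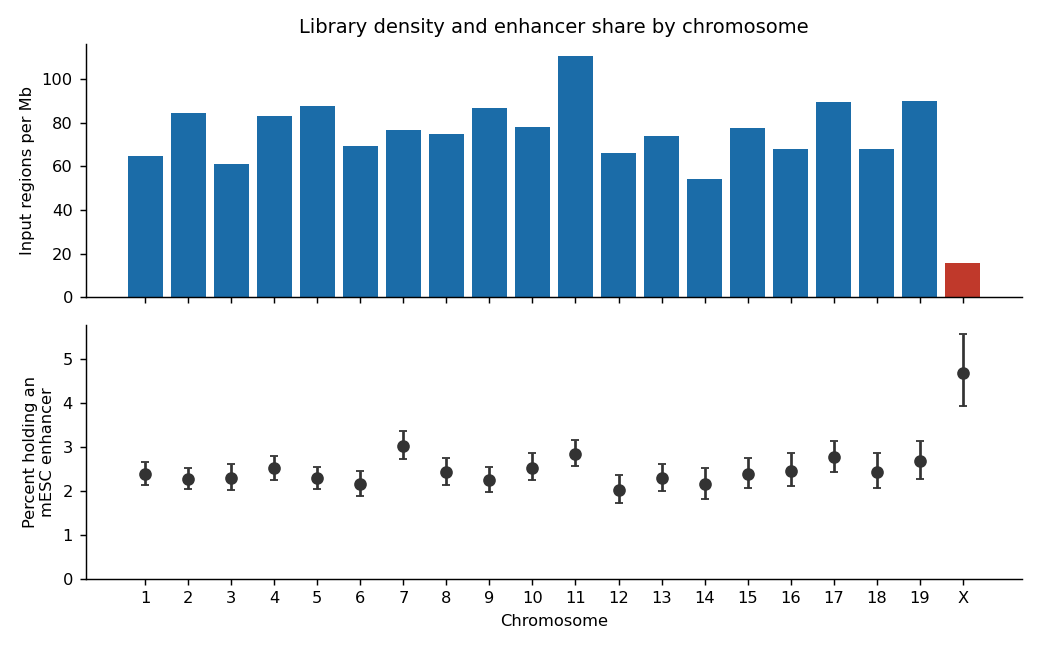
Top, input regions per Mb on each autosome and on X, from the start of the first to the end of the last region. Bottom, percent of those regions that hold an mESC enhancer, with 95% Wilson intervals. Chromosome X has the fewest regions, 15.8 per Mb, and the highest share, 4.70%. Chromosome Y, with 11 regions, is not drawn.

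A logistic regression over all regions set these features side by side. The odds of holding an mESC enhancer rose 2.08 times (1.95 to 2.21) per doubling of width, with input fold, several summits, neighbours within 50 kb and chromosome X held constant. The corresponding odds ratios were 7.65 (7.23 to 8.11) per doubling of fold, 1.53 (1.41 to 1.66) for several summits, 1.36 (1.27 to 1.46) per doubling of 1 plus the neighbours, and 1.92 for X, which is 1 chromosome and so has no valid interval in this fit. With summit fragments in place of fold, width gave 1.65 (1.53 to 1.77), several summits 1.10 (1.01 to 1.20) and X 1.95, and neighbours turned to 0.756 (0.726 to 0.787). Width kept an odds ratio above 1 for the other lists in both fits. It was 2.16 and 1.75 for LIF-dependent enhancers, 2.32 and 1.86 for RA-induced enhancers and 1.83 and 1.59 for RARA peaks, with fold and with fragments respectively. For RARA the odds ratio of neighbours was 2.10 (1.98 to 2.22) with fold and 1.49 (1.42 to 1.57) with fragments. Intervals allow for likeness of regions on 1 chromosome, but regions are not replicates and no p-value is given.

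Reporter peaks lay close to the summits of the plasmid input. Of the 4674 mESC enhancers 4622 overlapped a library region, and the distance from their own summit to the nearest input summit had a median of 20 bp (quartiles 9 and 43). For LIF-dependent and RA-induced enhancers in library regions it was 28 bp each (26 to 32, and 22 to 33). RARA summits in library regions lay further off, at a median of 82 bp (79 to 86). Reporter peaks and input peaks are built from the same cloned fragments, which the RARA peaks do not share, and the part of this in the difference was not tested. An mESC enhancer covered a median of 64.6% of its region, and 77.1% of the enhancers lay wholly inside. In regions with several summits, 792 of 975 mESC enhancers (81.2%) were nearest to the strongest summit. For LIF-dependent enhancers this held for 89 of 106 (84.0%) and for RA-induced enhancers for 48 of 65 (73.8%). The strongest summit is defined by the plasmid input itself, and the part of this in these shares was not tested.

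Enhancers outside the library's regions were few. For mESC these were 52, at 188 to 173528 bp from the nearest library region (median 9118 bp), and 5 of them were within 1 kb. In the authors' deposited table their fold over input had a median of 8.28, against 8.62 for those inside. Within the library, the deposited activity score of mESC enhancers, whose scale is not stated, was highest where regions were narrow. Its median in the authors' deposited table was 3.18 (3.04 to 3.35) for the 119 enhancers in the narrowest quintile of regions and 2.41 (2.37 to 2.44) for the 2358 in the widest. Over quintiles of input fold it was 3.15 in the lowest and 2.43 in the highest. The listed enhancers were called over the plasmid input, which was thinner in narrow regions and at low fold, and the part of this in the gradient was not tested.

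Regions at the top of input fold were split between those that held a listed enhancer and those that held none. Lack of a listed enhancer does not show inactivity, because mESC enhancers were called over the plasmid input. The 10 regions of highest input fold ran from 32.6-fold to 52.0-fold, and each had 1 summit. The first, on chromosome 1 from 102076675 to 102076970, was 296 bp wide and had 1291 fragments at its summit. It had no other region within 50 kb and overlapped a RARA peak, but no enhancer. The second, on chromosome 8 from 15519782 to 15520116, had 646 fragments and likewise a RARA peak without an enhancer. The third, on chromosome 4 from 33910776 to 33911383, was 608 bp wide and held an mESC and a LIF-dependent enhancer. Of the 10, 5 held an mESC enhancer, against 2.47% of all regions, and 8 overlapped a RARA peak, against 2.94% of all. Of these regions 3 lay on chromosome 13 between 65515967 and 66799695, each with an mESC enhancer.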

How the data were processed

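The 186959 input regions and the lists compared with them were chosen with earlier results of these data known. The authors' steps are known in part. MACS2, Bowtie2, deepTools, SAMtools and UMI-tools are named, with build mm9 and without settings, per the submitters' processing notes. Peak names in the deposited lists speak of paired-end calling at a q of 0.05 on merged replicates. How the numbered input peaks were filtered is not stated there.

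Each deposited list gives per summit a score (10 times −log10 q), the authors' fold enrichment (a ratio), −log10 p, −log10 q and a summit position. The deposited table of mESC enhancers adds an activity score of unstated scale. The lists hold no read counts or library depths. Fragments n at a summit over background b were solved from fold = (n + 1)/(b + 1) and the Poisson −log10 p. Rows sharing boundaries were collapsed to the summit of highest −log10 q. Overlap meant at least 1 bp. Windows ran from the first to the last that holds a region on each chromosome. Stratified shares use equal weights for both classes. The logistic regression had variance clustered by chromosome, and its code was tested on simulated data. The named regions followed a rule: the 10 widest, of highest fold, with most summits, the 10 densest windows and the 5 longest gaps. No region held 3 or more mESC enhancers, which the rule also asked for. Genes, promoters and sequences at these positions were not analysed here. Software was statsmodels 0.14.6, SciPy 1.17.1, pandas 2.3.3, NumPy 2.4.6, Matplotlib 3.10.9 and Python 3.11.15.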

Additional observations from a re-analysis of the deposited data

How the results depend on the processing

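Of 67 values recomputed under other settings for 15 results, 36 stayed within their counting error (a number of regions, within 1.5 times), 28 moved by more and 3 changed direction. The cause was not tested unless the setting itself shows it. With only regions of −log10 q of at least 10, 87791 regions were left, of median width 357 bp, 7.83% with several summits, a median gap of 11462 bp and 27 regions per window. Of these, 4.91% held an mESC enhancer and 5.01% overlapped a RARA peak, and the ratio was 39.3 for the widest against the narrowest decile and 3.37 for several summits against 1, with an odds ratio of 2.22 per doubling of width. Joining regions under 150 bp apart changed nothing, since the shortest gap was 181 bp. Its values are among the 36 that stayed, although they could not have moved. Joining those under 500 bp apart, chosen after seeing the data, left 173922 regions and gave a median width of 345 bp, 10.4% with several summits, a gap of 5996 bp and an mESC share of 2.64%. Autosomes alone had a gap of 5364 bp and 63 regions per window, and gaps from summit to summit had a median of 5813 bp. With an enhancer summit required within 150 bp of the strongest input summit, the mESC share was 2.31% and the ratio for several summits 5.32. With a RARA summit required inside the region, the RARA share was 2.41%. A neighbour within 2 kb gave a ratio of 1.64. Windows of 5 Mb turned the density ratio to 0.834. The odds ratio of width was 4.04 with width alone, 1.65 with summit fragments in place of fold, and 2.05 to 2.10 when each chromosome was left out in turn. Averaging within deciles of fold was planned for these contrasts, though not as one of the recomputed settings. Averaging within deciles of summit fragments was added after seeing the data. Within deciles of fold the ratios were 19.2 for width, 3.10 for several summits and 2.26 for neighbours. Within deciles of summit fragments they were 9.45 and 1.60, and they turned to 0.866 for neighbours and 0.488 for density.

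No paired analysis was possible because the deposited lists come from merged replicates and hold no value per replicate, which also left no replicate to leave out. Depth limits single regions: a summit of 20 fragments has an interval of 12.2 to 30.9. There was 1 plasmid library, so the spread of these values between libraries is unknown.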
